A study of Homo sapiens and Mus musculus with 9 samples.

Results

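The stop codon windows describe the last stretch of each coding region and the first nucleotides beyond it, as covered by ribosome-protected fragments. Each window runs from position -300 to position 30 around the end of a coding region, and position 0 is the first nucleotide after the stop codon. The windows used were those of transcripts listed in all 4 ribosome profiling (Ribo-seq) libraries, which were 10669 of the 15491 transcripts listed in at least 1 library. Membership used only whether a transcript was listed, not the shape of its window.

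The 4 libraries were made from HEK293, a human embryonic kidney cell line of wild-type genotype, with 1 library in each group. The first was an unstarved control and the second was starved. The other two came from starved cells transfected with a trans-RNA against ATF4, and they are called trans1 and trans2 here. The labels describe both in the same words and do not say if they are repeats or hold different RNAs. The remaining 5 samples of the series, small RNA and mouse liver libraries, were not used here. In the order control, starvation, trans1 and trans2, the windows held 4528724, 4040246, 2672557 and 3051351 reads, with a median of 50, 42, 24 and 36 reads per window. With 1 library per group no test between conditions was possible, so no p-value is given. Intervals are exact 95% binomial intervals, and they cover counting error only. For a count of 0 the share that 3 reads would make is given as a floor, which is somewhat below the upper end of the exact interval.

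Translation ends when a stop codon enters the A site of the ribosome. No tRNA reads it, and the release factors eRF1 and eRF3 bind there, free the finished protein and leave the ribosome to be split by ABCE1. Footprints therefore tend to pile up at the stop codon and to be rare beyond it. A ribosome found beyond a stop may have read through it or may be translating a further reading frame.

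In every library the summed footprints showed 1 sharp peak, at position -18. There the density, a signal the authors scaled to each transcript's own level, averaged 12.23, 11.42, 11.19 and 10.43 in control, starvation, trans1 and trans2 over the 10669 transcripts. In summed reads the same position stood 11.05, 10.58, 10.88 and 9.73 times above the mean at -300 to -31. The highest position of the start codon windows was -12, so if the same spacing of 12 nucleotides holds, a read at -18 has the last sense codon in the P site and the stop codon in the A site. The sources used here do not give the offset that the authors applied. By both measures control was highest and trans2 lowest. The order was not the same in every subset: over the transcripts with at least 64 reads in every library the mean density was 13.5, 13.3, 14.0 and 11.9, with trans1 highest.

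One codon further on, at -15, the stacks were much smaller and the libraries separated more. Summed reads there stood at 2.06 times the mean level in control and at 1.61, 1.41 and 1.43 in starvation, trans1 and trans2. By mean density the values were 2.34, 1.94, 1.76 and 1.69, again with control highest. The stretch just before the peak, -30 to -19, held 1.06, 1.19, 1.34 and 1.08 times the mean level in the same order. Without the 10 transcripts with most window reads in each library it held 0.926, 1.00, 1.02 and 0.939 times that level. The higher trans1 value thus rested largely on those 10 windows together. RPL41, a ribosomal protein of 25 residues with 132774 trans1 reads, was among them, but its own part in this stretch was not measured.

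**Figure D1:**
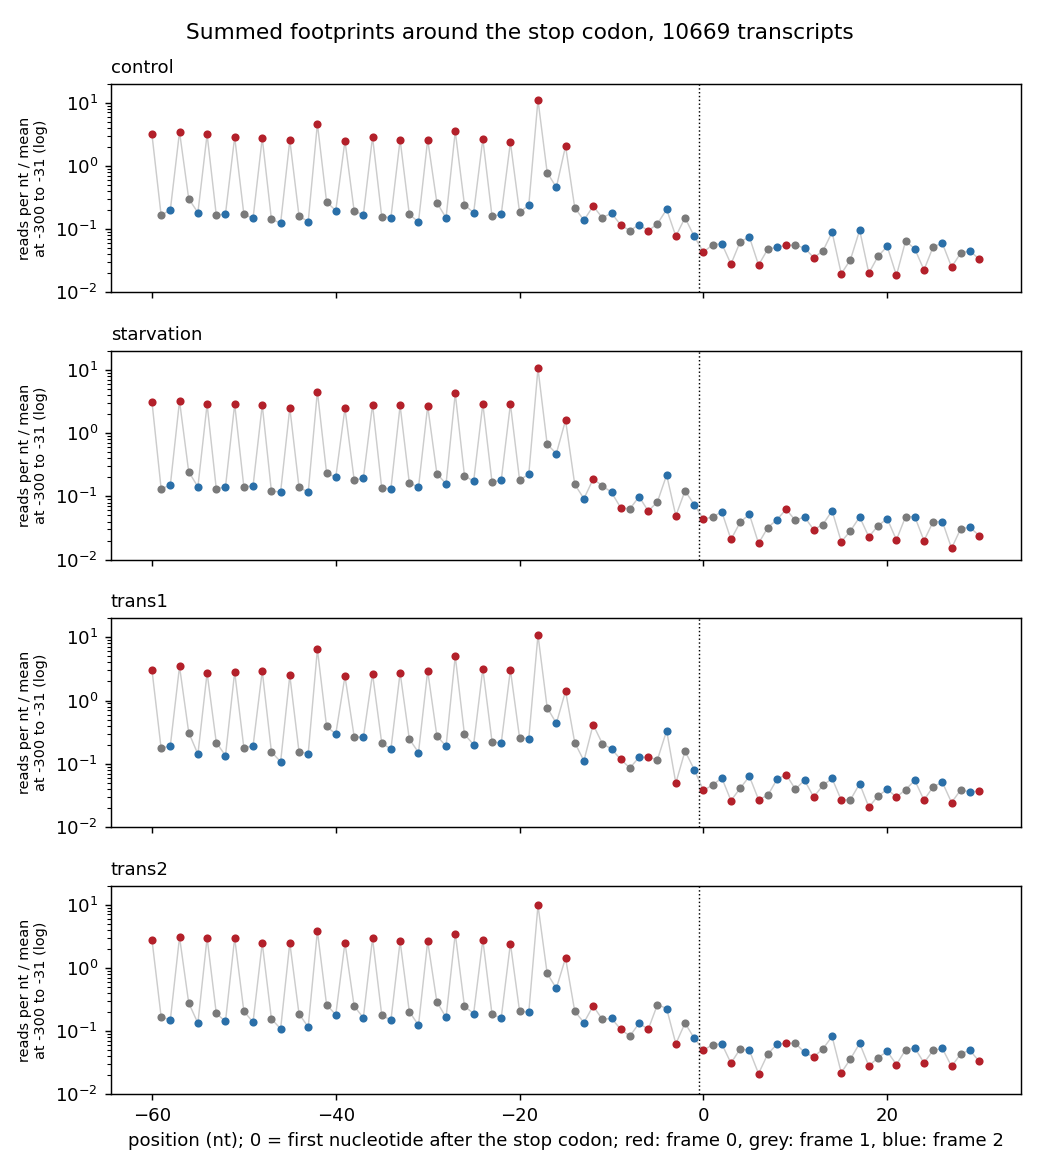
Summed reads per position from -60 to 30, relative to the mean per nucleotide at -300 to -31 (log axis), for each of the 4 libraries. Points are coloured by frame, and the dotted line marks the end of the stop codon. Frame 0 leads up to -15, the peak stands at -18, and the highest value past the stop is 0.0962, at position 17 in control.

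The reading frame was strong up to the peak and lost right after it. Frame 0 holds the positions that are a whole number of codons from position 0. At -300 to -31 it held 88.8%, 89.7%, 87.3% and 88.1% of the control, starvation, trans1 and trans2 reads. Within the peak itself, -18 to -16, it held 89.9%, 90.2%, 90.02% and 88.3%. At -15 to -13 it still held 85.3%, 86.7%, 81.1% and 80.7%, so the reads 1 codon past the peak kept the frame of the coding region. From -12 to -1 frame 0 held 32.1%, 28.1%, 35.6% and 30.0%, close to equal shares. Reads per nucleotide there were 7.44, 9.34, 6.04 and 6.85 times below the mean level of the coding region. If the spacing of 12 nucleotides holds, these reads already have the P site past the stop. They were 0.537%, 0.428%, 0.656% and 0.586% of window reads. Reads called past the stop below are only those at positions 0 to 30.

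Beyond the stop, at positions 0 to 30, reads per nucleotide were 21.3 times below the mean level of the coding region in control. They were 27.1, 24.7 and 21.6 times below it in starvation, trans1 and trans2. Frame 0 was the least used frame there, with 22.6%, 25.9%, 28.1% and 26.2% of the reads, while frame 2 held 43.2%, 41.1%, 41.5% and 39.7%. The reads past the stop as a whole thus did not continue the frame of the coding region in any of the 4 libraries. In the mean density over transcripts, position 13 stood apart at 0.587, 0.301, 0.308 and 0.970, but the summed reads there were 0.0449, 0.0359, 0.0455 and 0.0521 of the mean level and did not stand apart. The 3 windows with the highest values, none with more than 46 reads, made up 85.5%, 83.5%, 76.1% and 90.6% of the density summed at position 13, and without them the mean was 0.0849, 0.0498, 0.0737 and 0.0914.

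**Figure D2:**
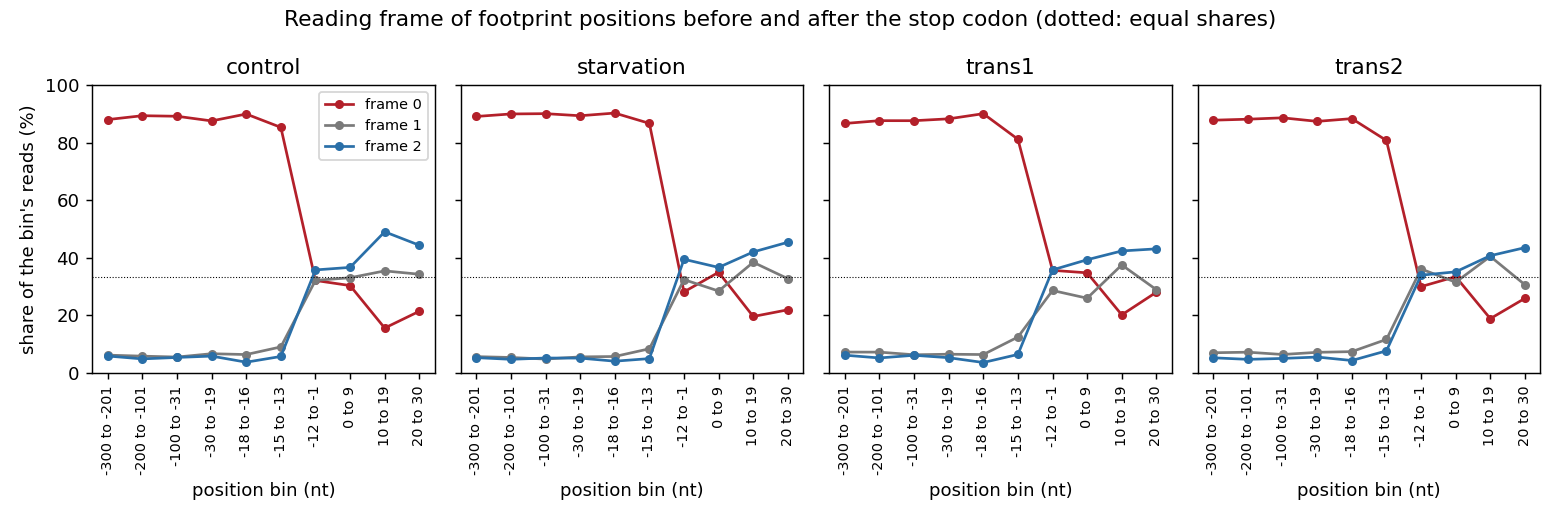
Share of reads in each of the 3 frames, in bins from -300 to 30, per library. Frame 0 (red) lies between 80.7% and 90.2% up to -13 and between 28.1% and 35.6% from -12 to -1, near equal shares (dotted line). From 0 to 9 it lies between 30.3% and 34.9%. That bin starts and ends on a frame 0 position, so an even spread would put frame 0 above the line. After position 9 frame 0 lies between 15.6% and 28.03%, and frame 2 (blue) is highest. Bins past the stop hold unequal numbers of positions per frame. At 10 to 19 frame 1 has the most positions. At 20 to 30 frames 0 and 2 have equally many and frame 1 has fewer, and frame 0 holds between 21.4% and 28.03% there.

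In total 21902, 15397, 11071 and 14663 reads of control, starvation, trans1 and trans2 lay past the stop. This was 0.484% (0.477 to 0.490), 0.381% (0.375 to 0.387), 0.414% (0.407 to 0.422) and 0.481% (0.473 to 0.488) of the window reads. Control and trans2 had overlapping intervals, and starvation had the lowest share. When each transcript counted equally, the mean share was 1.31%, 1.36%, 1.77% and 1.44%, with control lowest and trans1 highest, so the order of the libraries depended on the weight given to deep windows. In short coding regions, where the start codon window reaches past the stop, reads could be followed farther out. Over the 277 transcripts with at most 240 nucleotides from start codon to position 0, reads per nucleotide were 19.6, 24.3, 33.2 and 22.4 times below the coding level at 0 to 30. They were 14.9, 18.2, 23.3 and 15.9 times below it at 31 to 60, so coverage did not decline with distance there.

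The reads past the stop were concentrated on few transcripts. At least 1 such read was present in 2240, 1566, 1513 and 2113 transcripts of the control, starvation, trans1 and trans2 libraries, and 6783 of the 10669 had none in any library. Only 594 carried them in all 4. The 10 transcripts with most held 24.1%, 21.4%, 20.3% and 20.0% of all reads past the stop, and the 100 with most held 59.1%, 59.98%, 55.3% and 55.7%. Of the reads of the whole window, the 10 deepest windows held 10.1%, 13.1%, 17.0% and 11.3%, so in trans1 the shares were near each other. The lists of transcripts with most reads past the stop overlapped across libraries, since 51 transcripts were among the top 100 in all 4. Deeper windows had reads past the stop more often but a lower share: with 1000 reads or more the pooled share was 0.306%, 0.187%, 0.159% and 0.221%, against 1.32%, 1.43%, 1.67% and 1.501% in windows with under 64 reads.

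Single transcripts were compared where the window held at least 64 reads in every library, which left 3121 of the 10669 (29.3%). Of these, 107 had at least 10 reads past the stop in each library, and 27 of the 107 could be given a gene symbol. Their most used position past the stop was the same in all 4 libraries for 36 and in at least 3 for 71. The share past the stop exceeded 10% in every library for 34 of them. The termination share, the percentage of a window's reads at -18 to -16, had medians of 0.329%, 0.156%, 0.118% and 0.293% among the 107 and of 1.36%, 0.514%, 0.324% and 0.801% among the other 3014. The reads past the stop that selected the 107 are part of the window reads it is divided by. An unmeasured part of the lower medians was thus set by the selection. No read in the peak in any library was seen for 29 of the 107 (27.1%) and 586 of the 3014 (19.4%).

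Reads spaced by whole codons past the stop were seen on ENST00000646370, which has no symbol in the files used. It had 573, 372, 241 and 291 reads past the stop in the same library order, or 49.1%, 58.4%, 68.5% and 52.3% of its window. They began at position 5 in the 3 libraries other than trans1 and at position 8 in trans1, and lay 1 codon apart up to position 29, with 92.6% in frame 2. No read lay in the termination peak of this transcript in any library. All 4 libraries thus showed the same spacing, and the share was highest in trans1 (63.3 to 73.3).

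HOXB7, a homeobox transcription factor, carried reads past the stop mostly in the frame of its own coding region. It had 84, 145, 151 and 80 such reads in control, starvation, trans1 and trans2, or 24.8% (20.3 to 29.7), 33.1% (28.7 to 37.7), 39.4% (34.5 to 44.5) and 28.9% (23.6 to 34.6) of its window. The highest positions were 21 (20, 30, 50 and 21 reads), 24 (17, 43, 25 and 13) and 30 (15, 19, 24 and 13), and 73.3% of the reads were in frame 0. Stacks out of that frame were seen as well, at position 23 in starvation (25 reads) and at position 28 in trans1 (30 reads). Between the stop and position 18 there were few reads, and the termination peak held 1 read in control and none in the other libraries. The trans1 interval lay above that of control, and the starvation interval overlapped both.

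In LUC7L3, a splicing factor of the U1 complex, nearly all reads past the stop were at 1 position. Position 14 held 562 of 566, 102 of 108, 57 of 62 and 301 of 312 such reads in control, starvation, trans1 and trans2. The share past the stop was 42.9% (40.2 to 45.6), 17.7% (14.8 to 21.0), 9.12% (7.06 to 11.5) and 46.7% (42.9 to 50.6). Starvation and trans1 were thus low, and control and trans2 high, with no overlap between these pairs of intervals.

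TMEM167A, a small membrane protein of the secretory pathway, had its reads at position 5. It had 80, 121, 96 and 49 reads past the stop, or 44.7%, 62.1%, 75% and 45.8% of its window, and no read in the termination peak in any library. Position 5 held 59, 116, 93 and 45 of them. ENST00000536684 showed the same position with 386, 258, 127 and 114 reads past the stop, which was 95.3%, 97.4%, 81.4% and 85.7% of its window. Position 5 held 384 of 405, 255 of 265, 114 of 156 and 107 of 133 window reads of that transcript, so the single stack made up nearly the whole window in control and starvation and a smaller part of it in trans1 and trans2.

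MAZ, a zinc finger transcription factor, had a stack at position 20 with 62, 25, 27 and 21 reads, and a share past the stop of 28.7%, 12.1%, 30.1% and 15.8%. DNAJA3, a mitochondrial chaperone of the DNAJ family, had most of its reads at positions 15 and 18, with 29, 36, 19 and 37 past the stop and 90.9% in frame 0. Its share was 7.99% in control (5.42 to 11.3) and 18.4%, 18.3% and 17.5% in the starved libraries. The control interval of DNAJA3 lay below that of each of the other libraries.

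The histone gene H3C13 had most of its reads past the stop at the first positions after it. It had 130, 115, 129 and 120 reads past the stop, most of them at positions 0 to 3, which was 6.73%, 7.997%, 17.7% and 7.41% of its window. The trans1 interval, 15.0 to 20.7, lay above those of the other libraries. Histone genes have near-identical copies, so reads may be split among them and these values are uncertain.

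**Figure D3:**
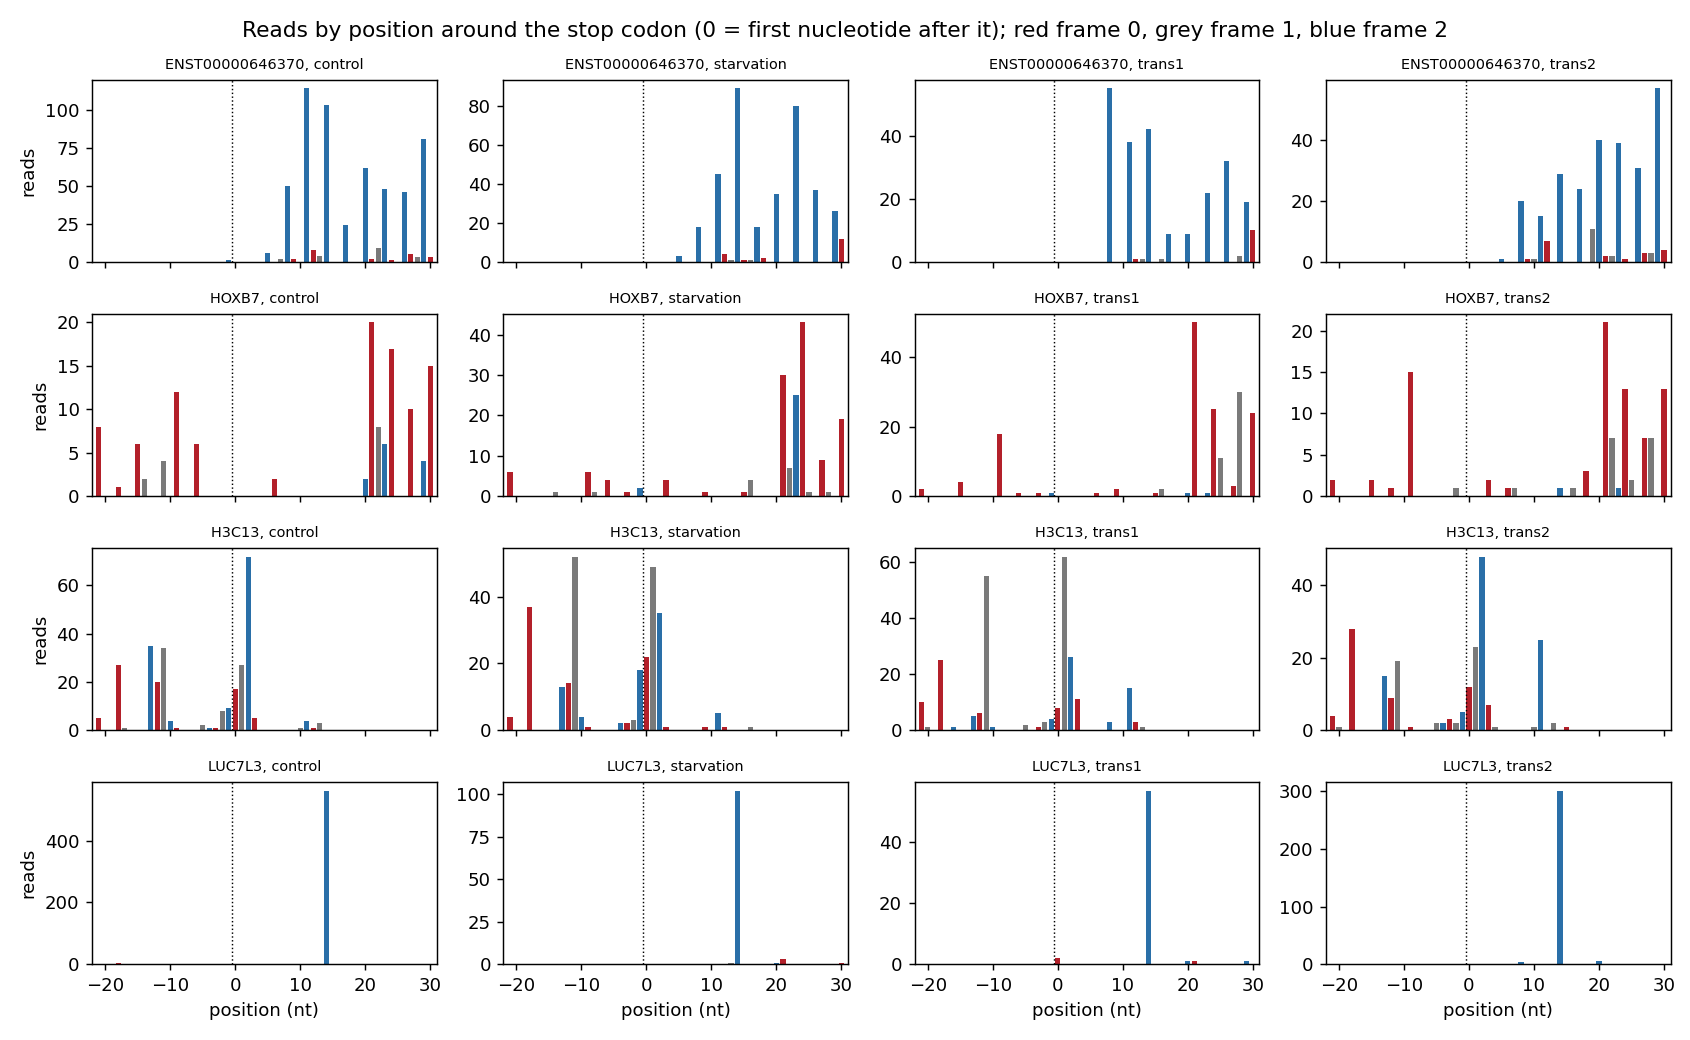
Reads by position from -21 to 30 for ENST00000646370, HOXB7, H3C13 and LUC7L3 in each library, on a linear axis of its own per panel, coloured by frame. The first has codon-spaced reads in frame 2 from position 8 on, HOXB7 has mostly frame 0 reads from position 21 on, H3C13 has reads at 0 to 3, and LUC7L3 has 1 stack at position 14.

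PAICS, a purine synthesis enzyme, and UBL4A, a ubiquitin-like protein that helps insert tail-anchored membrane proteins, had their stack at position 0. PAICS had 33, 42, 36 and 30 reads there, and UBL4A had 15, 11, 16 and 18. Both also had reads in the termination peak, which held 18.6%, 28.9%, 32.2% and 9.45% of the PAICS window and 7.85%, 2.15%, 0.262% and 5.49% of that of UBL4A. EIF1, the factor that guards start codon choice, had 122, 170, 106 and 99 reads past the stop, or 2.19%, 2.43%, 2.04% and 1.96%, with overlapping intervals throughout. HMGB2, a chromatin protein, had 0.605%, 0.626%, 1.20% and 1.20%, so that both trans-RNA libraries lay above the 2 others. EIF2S3, a subunit of the initiation factor eIF2, had 7.21%, 8.32%, 11.5% and 19.6%, with trans2 highest.

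The transcript with most reads past the stop over the 4 libraries together was ENST00000339471, with 1359, 629, 479 and 736 such reads in control, starvation, trans1 and trans2. This was 11.7%, 7.29%, 6.91% and 10.7% of its window, with 95.7% in frame 2. Over the 4 libraries together 231 transcripts had at least 40 reads past the stop. In 81 of these more than 1 in 2 reads lay at a single position. Of the other 150, 74 had over 70% of the reads in 1 frame, which was frame 0 in 6, frame 1 in 35 and frame 2 in 33. HOXB7 and H2AC13, a histone, were the ones in frame 0 that had a symbol, and ATP5F1E, a small subunit of the ATP synthase, and GABARAP, an autophagy protein, were in frame 1.

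**Figure D4:**
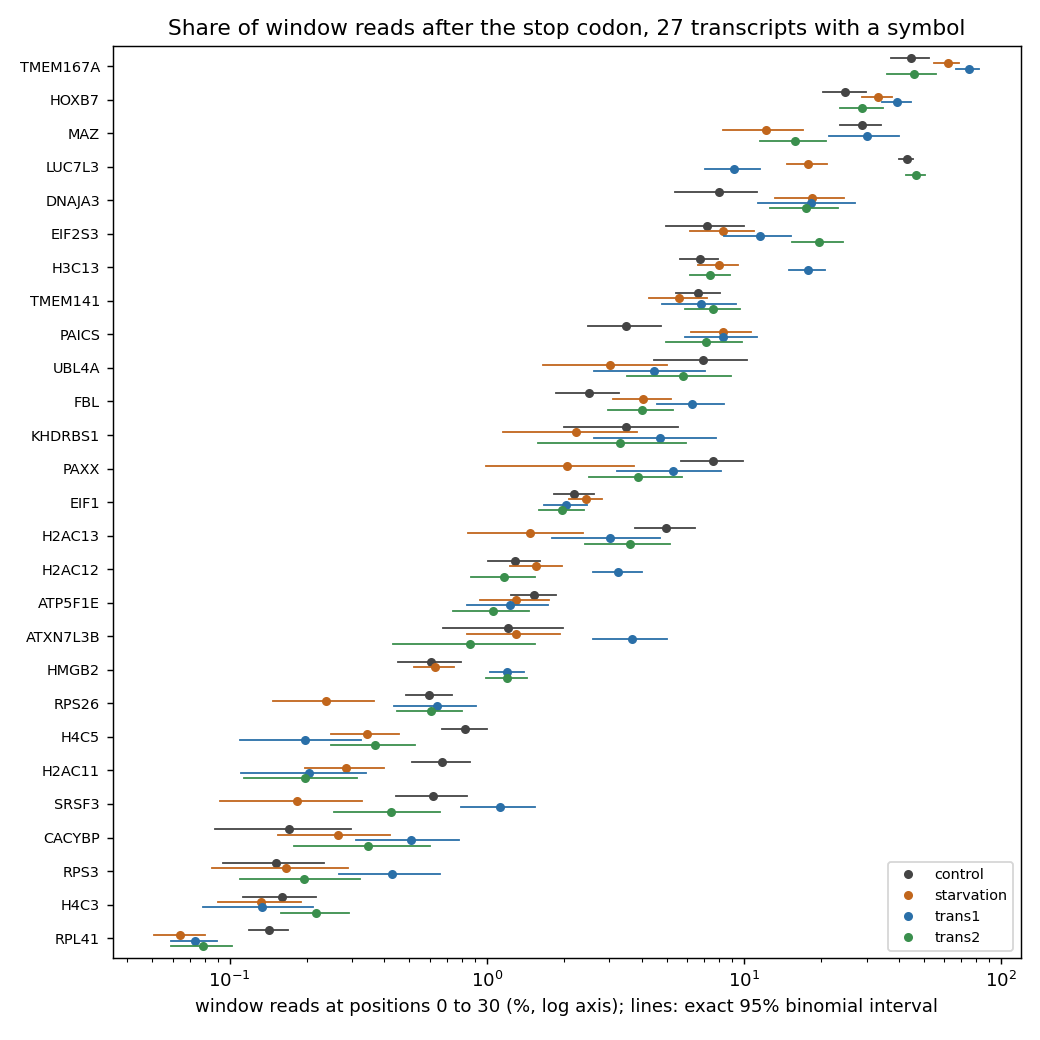
Share of window reads at positions 0 to 30 (log axis) for the 27 transcripts with a symbol and at least 10 such reads in every library, with exact 95% binomial intervals. TMEM167A is highest and RPL41 lowest by the lowest of the 4 values. LUC7L3 is low in starvation and trans1.

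The authors' deposited table of open reading frames lists a downstream frame, a frame that lies past the main stop, for 50 of the 107 carriers (46.7%, 37.0 to 56.6) and 372 of the other 3014 (12.3%, 11.2 to 13.6). Those frames were called from the same reads, so this is no independent measure. Which other transcripts of a gene code past these stops was not tested, because no annotation of the transcripts was used here.

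The termination peak itself varied widely between transcripts. Position -18 was the highest of the whole window in 331, 249, 258 and 286 of the 3121 in control, starvation, trans1 and trans2, and in 132 it was so in all 4. At the other end, 859, 1202, 1398 and 1081 transcripts had no read in the peak, and 615 had none in any library. The median termination share was 1.32%, 0.491%, 0.305% and 0.775%, and the upper quartile was 4.86%, 3.45%, 3.73% and 3.87%. Pooled over all 10669, the peak held 4.09%, 3.90%, 3.99% and 3.68% of window reads. Window depth moved with the median in part, since trans1 was the shallowest library, and its part in the lower median was not tested.

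TMEM243, a membrane protein, had the largest termination share with a symbol. The peak held 191 of 285, 245 of 323, 224 of 283 and 269 of 341 window reads in control, starvation, trans1 and trans2, or 67.0%, 75.9%, 79.2% and 78.9%. BASP1, a membrane-bound protein abundant in neurons, had 59.2%, 69.0%, 70.5% and 54.8% from 2600 to 4543 window reads. Its starvation and trans1 values lay above those of control and trans2 with no overlap of intervals. TMEM243 had 0, 0, 1 and 0 reads past the stop and BASP1 had 3, 1, 0 and 0. Among the others highest by this measure were ENST00000495186 (68.7%, 79.5%, 64.8% and 71.0%) and ENST00000376957 (76.6%, 69.6%, 62.6% and 64.2%).

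Other transcripts with a symbol and a high peak differed more between libraries. ANKRD54, an ankyrin repeat protein, had 35.5%, 63.4%, 73.7% and 46.0% in control, starvation, trans1 and trans2. SULF2, a sulfatase of heparan sulfate chains, had 37.5%, 54.2%, 74.2% and 35.9%. EIF5A, the hypusine-carrying factor that aids elongation and termination, had 36.8%, 60.6%, 35.5% and 45.9%. In each of these 3 the starvation value exceeded that of control, and the intervals did not overlap for ANKRD54 and EIF5A.

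Gene lists were read beside all members. The list of 11 termination, recycling and rescue factors with a window, which held DENR, a recycling factor of the 40S subunit, and PELO, which rescues stalled ribosomes, had 3 members with enough reads. DENR had a termination share of 3.46%, 2.27%, 5.19% and 1.60%. EIF5A, also of the list, had the 36.8%, 60.6%, 35.5% and 45.9% given above. It was the 1 of the 3 whose starvation interval lay above that of control. PELO had no peak read and no read past the stop among 124, 143, 110 and 102 window reads, where 3 reads would be 2.42%, 2.10%, 2.73% and 2.94%. MTCH2, an outer mitochondrial membrane protein, was the only one of 4 members of the readthrough list with enough reads. It had a termination share of 14.5%, 13.7%, 15.0% and 12.5% and 1, 0, 0 and 0 reads past the stop. The exact intervals of its share past the stop reached up to 0.312%, 0.263%, 0.563% and 0.354%.

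Selenoproteins insert selenocysteine at an internal UGA codon, which in SELENOS stands close to the end. SELENOS had 1, 1, 1 and 4 reads in the peak among 908, 1019, 614 and 666 window reads and no read past the stop. SELENOT and SELENOW had 6 peak reads in all, each of them in the trans2 library for SELENOT. The single member of the frameshifting list did not reach 64 reads. Of 85 zinc finger ZNF genes, 6 did. Their median termination share was 0%, 0%, 2.78% and 2.27%, against 1.32%, 0.491%, 0.305% and 0.775% over all members. The control and starvation intervals overlapped in all 6. No gene of this list met the minimum of 10 expected peak reads used in the comparisons below.

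Ribosomal protein transcripts are short, abundant and deeply covered, and all 39 had at least 64 reads. Their pooled termination share was 2.33%, 1.46%, 1.25% and 1.92%, below the 4.09%, 3.90%, 3.99% and 3.68% of all members, while their median was 1.33%, 0.616%, 0.532% and 0.568% against 1.32%, 0.491%, 0.305% and 0.775%. RPL12 had the highest share of the list in all libraries but trans1, with 29.6%, 22.7%, 11.95% and 34.9%. RPL8, highest in trans1, had 12.4%, 15.0%, 20.9% and 12.9%, and RPS4X had 12.8%, 11.8%, 13.8% and 11.4%. RPL23 had 0, 0, 0 and 1 peak reads among 21502, 12540, 12694 and 10399 window reads, and RPL13 had 0, 1, 0 and 0 among 14163, 14760, 10216 and 11162. RPLP1 and RPLP2, the acidic stalk proteins, also had almost none, with 10, 0, 0 and 0 and 23, 10, 0 and 6 reads. Each of these 4 windows held 5712 reads or more in every library.

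Past the stop the ribosomal proteins had a pooled share of 0.108%, 0.0511%, 0.0673% and 0.0746%, against 0.484%, 0.381%, 0.414% and 0.481% over all members. A read past the stop was present in 31, 20, 28 and 27 of the 39, beside 1221, 852, 807 and 1083 of the 3121 transcripts compared singly. Among all windows with 1000 reads or more, 56.4%, 41.8%, 39.4% and 52.3% had such a read. Presence thus rose with depth, and these deep windows were not compared at equal depth. Of the 39, RPL23, RPL27, RPL36 and RPLP1 were the 4 that had none in any library. RPL28 had 36, 25, 2 and 21 such reads, 81.0% of them in frame 1.

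Histone transcripts, which end in a stem-loop without a poly(A) tail for most members, had 20 of 21 members with enough reads. Their median termination share was 3.29%, 1.61%, 1.55% and 2.55%, while their pooled share was 6.81%, 8.03%, 8.38% and 5.94%. The starvation interval lay above that of control in 5 of the 20, below it in 8 and overlapped it in 7. The same count was not made over all transcripts, so these numbers are not shown to be particular to histones. H2AC4 had a termination share of 45.5%, 58.1%, 56.3% and 51.8%, H2AC15 of 35.2%, 50.7%, 41.9% and 49.6%, and H2AC11 of 20.2%, 37.6%, 44.5% and 22.0%. H3C1 had 21.3%, 31.5%, 30.4% and 19.3%. These 4 were among the 5 with a higher starvation value. Among the 8 with a lower one, H2AC20 had 7.64%, 1.38%, 2.44% and 2.35%, H2AC13 had 18.6%, 12.9%, 10.4% and 12.7%, and H4C3 had 3.17%, 1.14%, 1.02% and 2.76%. H3-3B, a replication-independent histone with a normal tail, had no read in the peak among 2315, 1502, 772 and 1361. The pooled share past the stop was 0.344%, 0.207%, 0.337% and 0.241%.

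Respiratory chain and ATP synthase subunits had 19 of 22 members with enough reads, and a median termination share of 3.67%, 3.09%, 2.73% and 2.26%. Their pooled share was 7.44%, 7.65%, 9.74% and 8.93%, against 4.09%, 3.90%, 3.99% and 3.68% of all members. The order of the libraries thus differed, with control highest by the median and lowest by the pooled share. UQCR10, a small subunit of complex III, had 17.3%, 26.4%, 36.2% and 26.5%. COX8A, a small subunit of complex IV, had 19.6%, 23.5%, 24.1% and 30.9%. ATP5F1D and ATP5F1B, of the ATP synthase, had 16.3%, 6.08%, 5.78% and 14.7% and 15.0%, 11.96%, 5.70% and 21.9%. In ATP5F1D control and trans2 lay above starvation and trans1 with no overlap of intervals, and in ATP5F1B the control and starvation intervals touched. In UQCR10 control was the lowest instead. UQCRC1 had no peak read in any library.

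**Figure D5:**
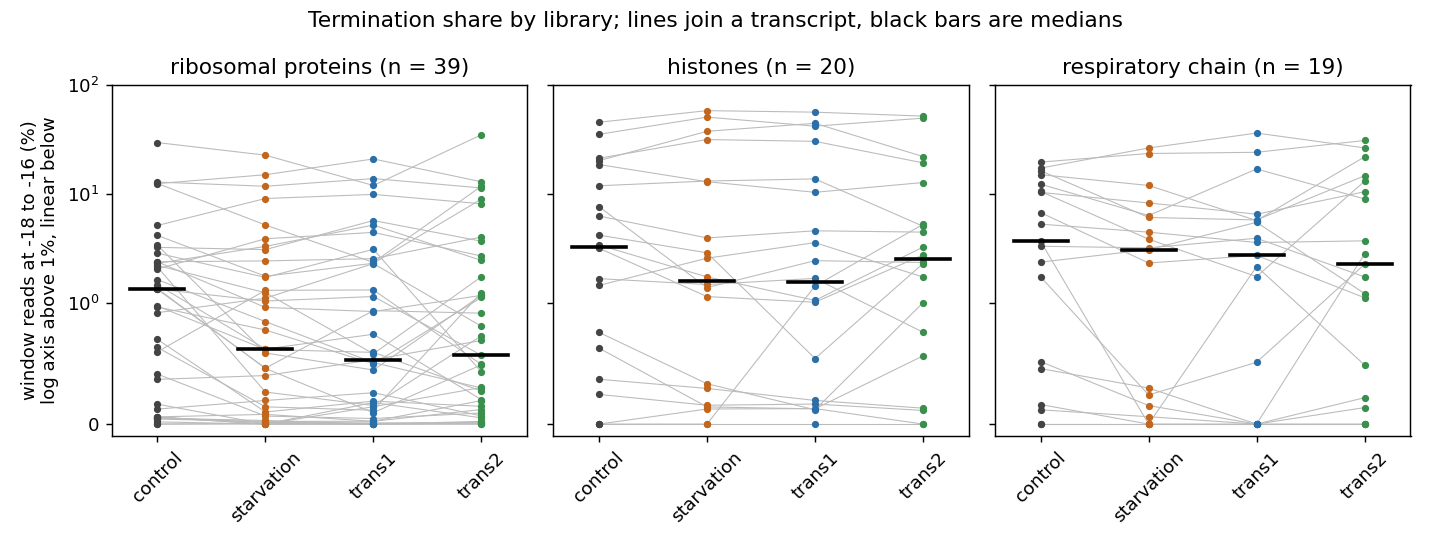
Termination share of ribosomal protein (n = 39), histone (n = 20) and respiratory chain (n = 19) transcripts by library, log axis above 1% and linear below it. Lines join a transcript and black bars are medians. Values span from 0 to over 10% in all 3 lists.

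Starvation was compared with control over the 4132 transcripts with at least 64 reads in both, with 1 read added to each count. The pooled termination share of these was 4.06% in control and 3.89% in starvation. It was at least 2-fold higher in starvation in 418 transcripts (10.1%) and at least 2-fold lower in 1122 (27.2%), with a median log2 ratio of -0.19. The pooled share past the stop was 0.447% and 0.341%, with 459 (11.1%) higher, 683 (16.5%) lower and a median log2 ratio of 0.044. More transcripts were thus lower than higher in both measures.

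Many of these windows had few such reads. The ratios were therefore also read where at least 10 would be expected in the shallower window, from the share of both libraries together. That share is weighted by depth, so a transcript with the higher share in its deeper window passed more readily. Control held more window reads in total than starvation, and starvation more than trans1 and trans2. How far this moved the counts was not tested. Of 1222 transcripts with 10 expected peak reads, 98 (8.02%) were higher in starvation and 283 (23.2%) lower, with a median log2 ratio of -0.21. Of 203 for reads past the stop, 15 (7.39%) were higher and 46 (22.7%) lower, and the median was -0.21, opposite in sign to that over all 4132.

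All 39 ribosomal protein transcripts were among the 4132. In the peak 1 was higher in starvation and 15 lower, with a median log2 ratio of -0.64, beside the 27.2% lower over all transcripts. With at least 10 expected peak reads 1 of 31 was higher and 12 lower, beside 23.2% lower of all such transcripts. The starvation interval lay above that of control in 4 of the 39, below it in 18 and overlapped it in 17. The same count was not made over all transcripts. Deep windows such as these have narrow intervals that separate easily, so this count is not shown to be particular to the list. RPS23 had 12.5% in control and 5.19% in starvation, and RPL37 had 3.39% and 0.587%. For reads past the stop 0 were higher and 19 lower, with a median of -0.92, beside 16.5%. That 16.5% includes many transcripts with no such read in either library. With at least 10 expected reads past the stop 0 of 13 were higher and 7 lower, beside 22.7% lower of all such transcripts. The intervals were separate in 9 of the 39, all with starvation lower, again with no count over all transcripts to set beside it. RPL4 had 13 reads past the stop in control and 0 in starvation, where 3 reads would be 0.0653% of its window, and RPLP2 had 20 and 0. Of the 20 histones 0 were higher and 4 lower in the peak, and 2 were higher and 9 lower past the stop. With at least 10 expected reads 0 of 17 histones were higher and 4 lower in the peak. Past the stop 0 of 11 were higher and 7 lower. The largest value in the other direction with a symbol was SLC7A5, an amino acid transporter, with 0 reads of 271 in control, 13 of 199 in starvation (6.53%, 3.52 to 10.9), 12 of them at position 25, and 1 each in trans1 and trans2.

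Trans1 was compared with starvation over 3252 transcripts. The pooled termination share was 3.88% in starvation and 3.97% in trans1, with 739 (22.7%) higher in trans1, 393 (12.1%) lower and a median log2 ratio of 0.40. Over the 810 with at least 10 expected peak reads the split was even, with 82 (10.1%) higher, 84 (10.4%) lower and a median of 0.032. The pooled share past the stop was 0.325% and 0.347%, with 933 (28.7%) higher, 195 (6%) lower and a median of 0.68. Over the 144 with at least 10 expected reads there, 29 (20.1%) were higher and 19 (13.2%) lower, with a median of 0.19. Of the 39 ribosomal proteins 17 were higher and 3 lower past the stop. Only 8 of them had at least 10 expected reads there, of which 3 were higher and 2 lower. RPL17 had 0 reads past the stop in control, starvation and trans2 but 14 in trans1 (1.41%, 0.771 to 2.35). SNRPA1, a U2 splicing factor subunit, had 14, 22, 0 and 25 reads past the stop, and in trans1 3 reads would be 0.269% of its window. GRK6, a receptor kinase with fewer than 100 window reads in each library, had 2, 8, 0 and 0.

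Trans2 was compared with starvation over 3813 transcripts. The pooled termination share was 3.88% in starvation and 3.65% in trans2, with 851 (22.3%) higher in trans2, 394 (10.3%) lower and a median log2 ratio of 0.30. Over the 972 with at least 10 expected peak reads, 121 (12.4%) were higher and 108 (11.1%) lower, and the median was -0.082, of the other sign. The pooled share past the stop was 0.341% and 0.429%, with 765 (20.1%) higher, 210 (5.51%) lower and a median of 0.41. Over the 177 with at least 10 expected reads there, 27 (15.3%) were higher and 14 (7.91%) lower, with a median of 0.090. OLA1, an ATPase that binds ribosomes, had 11 reads past the stop in control and 15 in trans2, all at position 4, and 0 in starvation and trans1. PSMB2, a proteasome subunit, had 1, 0, 0 and 14, and SLC25A39, a mitochondrial glutathione carrier, had 9, 8, 0 and 0. The trans1 and trans2 comparisons share the starvation library, and starvation against control shares it too.

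Many of the transcripts compared had no read past the stop in either library, 2386, 2084 and 2271 in the 3 comparisons, and there the ratio follows the depth of the window alone. They were 121 of the 459 higher and 60 of the 683 lower in starvation, 464 of the 933 higher and 1 of the 195 lower in trans1, and 118 of the 765 higher and 6 of the 210 lower in trans2. The same holds for the termination share, where 1113, 1076 and 1162 transcripts had no peak read in either library. In starvation these were 54 of the 418 higher and 31 of the 1122 lower. In trans1 they were 232 of the 739 higher and 0 of the 393 lower, and in trans2 64 of the 851 and 4 of the 394.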

How the data were processed

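Ribo-seq was made from HEK293 cells with RNase-protected fragments selected by size, per the labels' protocols. The submitters' processing notes list STAR 2.7.10a, Bowtie 1.2.3, cutadapt 2.8 and bcl2fastq 2.20.0.422 with no role stated, and the build GRCm39, although the transcript identifiers are human. The sources used here give neither offset nor scaling. Per nucleotide and transcript, the deposited window tables give a density signal. The deposited peak lists hold counts, of which only gene names were used. The authors' fold tables hold log2 values per open reading frame, of which only the class of each frame was used.

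All values in a window were whole multiples of 1 step, within a tolerance of 1e-06 that was tested on simulated data, so reads were recovered as value over step. Position 0 was placed from 1549 transcripts whose start and stop windows overlap, and matched 3 of 3 proteins of known length (TMSB10, RPL41 and ATP5F1E). In short coding regions the reads placed there were a median of 52.5%, 50.0%, 49.4% and 51.0% of those that the divisor implies, so a density of 1 is not exactly the mean of the coding region.

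Named transcripts were the 12 with the largest lowest-of-4 share past the stop (64 window and 10 such reads in every library), the 8 with the largest lowest termination share, up to 4 in each direction per comparison with no position above 1 in 2 reads, and the 3 highest and lowest members of each list. Where these had no symbol, those with one were added, and so were the transcripts with most reads past the stop, after their values were seen. Not all transcripts that the rule gives are named. Symbols were found for 2995 of 10669 members. Members and lists were chosen with earlier results of these data known. A list of C-terminal residues could not be used without protein sequences, and no sequence is printed. Python 3.11.15, numpy 2.4.6, pandas 2.3.3, scipy 1.17.1 and matplotlib 3.10.9 were used.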

Additional observations from a re-analysis of the deposited data

How the results depend on the processing

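Values are in the order control, starvation, trans1 and trans2. The mean density at -18 was 11.03, 9.50, 9.48 and 9.01 without the 3476 transcripts in which 1 position held more than 1 in 2 window reads in some library. It was 13.5, 13.3, 14.0 and 11.9 with at least 64 reads in every library, 12.5, 11.7, 11.4 and 10.7 without coding regions under 300 nucleotides (added after the data were seen), and 11.1, 10.6, 10.9 and 9.73 in summed reads. The share past the stop was 0.466%, 0.363%, 0.395% and 0.464% without the same 3476. It was 1.31%, 1.36%, 1.77% and 1.44% as a mean over transcripts, and 0.223%, 0.171%, 0.189% and 0.220% from position 15 on. Added after the data were seen, it was 0.370%, 0.301%, 0.333% and 0.387% without the 10 transcripts with most such reads, and 0.251%, 0.194%, 0.233% and 0.271% for transcripts with a symbol other than histones. Frame 0 before the stop held 87.4%, 88.1%, 85.3% and 86.6% without each transcript's highest position and 88.5%, 89.4%, 87.1% and 87.7% at -300 to -1. Past the stop it held 21.7%, 20.6%, 22.9% and 23.5% without each transcript's highest position, and 29.0% in trans1 without the 3476.

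With the minimum of window reads doubled, 288 transcripts were higher past the stop in starvation against control and 563 in trans1 against starvation. In termination share 238 and 404 were higher in those comparisons, and 258 were lower in trans2 against starvation. With 0.5 read added, 299 were lower past the stop in trans1. With at least 10 such reads expected in the shallower window (added after the data were seen), 15, 29 and 27 were higher and 46, 19 and 14 lower past the stop in the 3 comparisons, and 98, 82 and 121 higher and 283, 84 and 108 lower in termination share. With at least 10 such reads in 1 of the 2 libraries, a minimum that can be met through the library with the higher share alone (also added), 55, 67 and 65 were higher and 103, 59 and 48 lower past the stop, and 151, 152 and 208 higher and 497, 197 and 199 lower in termination share. These subsets hold fewer transcripts. No paired analysis was possible because each group has 1 library. For the same reason no library could be left out. Transcripts with under 64 reads, 7548 of the 10669 in at least 1 library, were not compared singly.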

Other observations

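Further transcripts beyond the stop, chosen after their values were seen, lacked a gene symbol but had many reads. ENST00000611428 had 442, 640, 425 and 435 reads at position 9 in control, starvation, trans1 and trans2, with a share past the stop of 19.1%, 15.9%, 18.6% and 19.7%. ENST00000693610 had a share past the stop of 20.6%, 20.7%, 21.5% and 21.7%, with 90.1% of those reads in frame 1. ENST00000366839 had 640, 191, 66 and 93 reads past the stop, mostly at position 22, or 14.3%, 5.76%, 4.47% and 2.95%, so control was highest. ENST00000512419 had a share of 14.4%, 20.9%, 25.6% and 12.3%, with 95.8% of those reads in frame 2.

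ENST00000695560 had stacks at position 0 of 15, 25 and 10 reads in control, starvation and trans2 and none in trans1, while its termination share was 27.8%, 26.1%, 27.2% and 21.3%. ENST00000398411 had 0, 24, 6 and 4 reads at position 0.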
